A study of Rattus norvegicus with 28 samples.

Results

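The genes described here encode the Wnt ligands of the rat lung, their Frizzled receptors and co-receptor, the R-spondins, the secreted inhibitors, the axins and the TCF/LEF transcription factors. They were chosen by symbol and not by any measured value: every gene in the expression table was taken whose name begins with Wnt and a digit, Fzd and a digit, Sfrp, Dkk and a digit, Frzb, Wif1, Rspo or Tcf7, or is Lrp5, Lrp6, Axin1, Axin2 or Lef1, and that had a value above 0 in at least 1 library. This gave 38 genes of the 17002 in the table, of which 13 were Wnt ligands, 8 Frizzled receptors, 1 a co-receptor, 3 R-spondins, 8 secreted inhibitors, 2 axins and 3 TCF/LEF factors. Of the 38, 34 had a mean value of at least 10 over all libraries and were tested. Fzd10-ps1, Rspo3, Wnt3 and Wnt6 stayed under that level, with values of at most 12.17, 7.22, 16.21 and 17.71 in their highest libraries, and are not described further. Dkk1, Fzd3, Fzd7, Lrp5, Tcf7l2, Wif1 and Wnt10a are among the family's symbols that were not analysed here.

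Polyadenylated RNA was sequenced from right upper lobes of the lungs of Sprague Dawley rats, in 28 libraries from 8 groups, each group being defined by lung injury and by the kind of mechanical ventilation. All ventilated rats received either variable tidal volumes, called noisy ventilation in the labels, or volume-controlled ventilation at a constant tidal volume (VCV). Chronically injured rats were ventilated with variable (chronic_noisy, n = 3) or constant tidal volumes (chronic_VCV, n = 3), acutely injured rats with variable (acute_noisy, n = 4) or constant volumes (acute_VCV, n = 3), and uninjured rats with variable (healthy_noisy, n = 3) or constant volumes (healthy_VCV, n = 4). The 2 unventilated groups were rats studied 14 days after induction of the chronic injury (control_chronic, n = 5) and rats with neither injury nor ventilation (control_blank, n = 3). The labels used here do not say how either injury was made, and they name no genotype or transgene.

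Wnt ligands are secreted lipid-modified proteins that bind Frizzled receptors together with the co-receptors Lrp5 and Lrp6. In the canonical branch, binding recruits Axin1 and Axin2 away from the complex that destroys beta-catenin, and the stabilised beta-catenin acts with TCF/LEF factors on genes such as Axin2, itself a brake on the pathway; other ligands act through planar polarity and calcium signals without beta-catenin. R-spondins strengthen the signal by keeping Frizzled receptors at the cell surface, whereas secreted frizzled-related proteins (Sfrp, Frzb) bind ligands and Dickkopf proteins (Dkk) bind the co-receptor. In the lung the pathway is known for its part in airway branching, in the upkeep of alveolar type 2 cells and in repair.

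The promoters of 4 members are shown because Axin2, Tcf7 and Lef1 sit at the transcriptional end of the pathway and Sfrp2 was the inhibitor that fell in each comparison with control_blank lungs. The sequences are RefSeq's, build GRCr8, from 250 bases before to 50 after the annotated start, 5′ to 3′ on the strand of the gene, and capitals mark CTTTGA, the core of the TCF/LEF binding motif, searched on both strands (TCAAAG on the other). They lie at chr10:94398535-94398834 on the plus strand (Axin2), chr10:36954230-36954529 on the minus strand (Tcf7), chr2:222340463-222340762 on the plus strand (Lef1) and chr2:171387286-171387585 on the plus strand (Sfrp2).
Axin2: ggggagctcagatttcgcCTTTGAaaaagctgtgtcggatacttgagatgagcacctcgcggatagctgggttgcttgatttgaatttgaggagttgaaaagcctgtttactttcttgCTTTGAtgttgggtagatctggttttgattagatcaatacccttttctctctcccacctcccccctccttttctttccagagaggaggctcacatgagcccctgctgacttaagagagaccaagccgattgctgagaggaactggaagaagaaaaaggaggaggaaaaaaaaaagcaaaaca
Tcf7: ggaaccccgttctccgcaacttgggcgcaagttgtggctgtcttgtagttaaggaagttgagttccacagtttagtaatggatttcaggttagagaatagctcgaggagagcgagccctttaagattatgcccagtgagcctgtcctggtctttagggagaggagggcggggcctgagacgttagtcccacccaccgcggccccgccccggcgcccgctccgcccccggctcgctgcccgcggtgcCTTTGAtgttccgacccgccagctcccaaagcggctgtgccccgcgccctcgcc
Lef1: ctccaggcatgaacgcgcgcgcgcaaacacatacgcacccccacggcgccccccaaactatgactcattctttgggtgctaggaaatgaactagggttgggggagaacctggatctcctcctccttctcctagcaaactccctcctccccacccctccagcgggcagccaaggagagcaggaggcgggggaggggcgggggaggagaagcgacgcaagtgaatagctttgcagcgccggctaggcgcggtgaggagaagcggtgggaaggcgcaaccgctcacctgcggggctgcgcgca
Sfrp2: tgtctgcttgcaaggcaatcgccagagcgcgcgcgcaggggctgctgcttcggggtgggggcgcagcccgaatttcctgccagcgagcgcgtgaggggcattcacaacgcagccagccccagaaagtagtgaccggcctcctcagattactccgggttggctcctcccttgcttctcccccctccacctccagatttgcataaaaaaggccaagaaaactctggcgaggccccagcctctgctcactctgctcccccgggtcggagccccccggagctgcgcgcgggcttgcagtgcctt
The Axin2 window held 2 matches, starting 232 and 132 bases before the start site, and the Tcf7 window held 1, starting 4 bases before it. A window was found for 25 of the 38 members, and these were the only 2 of the 25 with a match (8.0%), against 5384 of all 33469 promoters of that length (16.1%). At least 2 matches, as in Axin2, were found in 1.85% of all promoters. A match is a run of letters and not a measured binding site.

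The deposited values are read counts divided by a size factor for each library, so a value compares libraries within 1 gene and not levels between genes, whose lengths were not used. The libraries held 6024093 to 31923838 reads, the shallowest being in the control_chronic group, which ranged from 6024093 to 17162741 reads. The sample titles carry numbers in 4 series: series 12 holds control_blank and acute_VCV, series 18 holds control_chronic, series 14 holds chronic_noisy with 3 of the healthy_VCV and 2 of the acute_noisy libraries, and series 15 holds the rest. What these series stand for is not given in the labels, and outside the comparison of acute_VCV with control_blank, group and series cannot be told apart or overlap only in part. Alveolar type 2 markers, the check on the tissue, summed to at least 245929 in every library. Neutrophil markers, by contrast, passed the test as higher in 4 of 4 cases in each ventilated group against its unventilated control, with sums of 8825 to 106881 over ventilated libraries and 833 to 3015 over unventilated ones. Since these are bulk samples, fewer cells of a type and less RNA per cell cannot be told apart, and the part of cell composition in the results below was not tested.

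Differences are log2 differences of value + 1 with their standard error (SE), from limma fitted across the 14908 genes tested, and a gene is said to have risen or fallen where its adjusted p over all these genes was under 0.05. Under constant ventilation of uninjured rats 16 of 34 members passed against control_blank (11 higher, 5 lower; 47.1%), against 57.4% of all genes (29.3% higher, 28.1% lower). Under variable ventilation of uninjured rats it was 10 (5 higher, 5 lower; 29.4%), against 32.1% of all genes (17.5% higher, 14.6% lower). In acutely injured rats 16 members passed under variable ventilation (7 higher, 9 lower; 47.1%), against 59.8% of all genes (31.3% higher, 28.4% lower). Under constant ventilation 6 did (3 higher, 3 lower; 17.6%), against 37.3% of all genes (20.6% higher, 16.7% lower). These 4 shares lie below the share of all genes.

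The unventilated chronic injury gave the one comparison with control_blank in which the family's share was above that of all genes: 10 members passed (7 higher, 3 lower; 29.4%), against 14.9% of all genes (9.3% higher, 5.55% lower). That count rested on 1 library. Without control_blank library 016 it fell to 1 member, with 1.37% of all genes called. Library 016 had the lowest value of the 3 controls for Fzd4, Fzd1, Lrp6, Axin2, Tcf7 and Lef1. It stood apart in cell-type markers too. Club cell markers summed to 1319036 in it, against 577704 and 496765 in libraries 021 and 074, and ciliated cell markers to 6431, against 2754 and 3016. Its sums of endothelial markers (11934) and T cell markers (1182) were the lowest of the 3, and the part of these differences in the counts was not tested. Leaving out library 016 also lowered other counts, to 9 in healthy_VCV and 6 in healthy_noisy lungs. The healthy_VCV count was 9 without control_blank library 021 as well, and the acute_VCV count was 10 without acute_VCV library 040. Shares of all genes are not given beside these other counts, so whether their changes are particular to the members cannot be read from them.

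Against the unventilated chronic injury group, 12 members passed in chronic_noisy rats (5 higher, 7 lower; 35.3%), against 37.2% of all genes (19.1% higher, 18.1% lower), and 7 did without chronic_noisy library 075. In chronic_VCV rats 6 passed (3 higher, 3 lower; 17.6%), against 14.8% of all genes (6.89% higher, 7.9% lower), and 3 did without chronic_VCV library 069. Acute injury was also set against ventilation without injury, where the groups under constant ventilation share no series. Under constant ventilation 14 members passed (2 higher, 12 lower; 41.2%), against 52.5% of all genes (26.1% higher, 26.4% lower), and the median difference was -0.49 over the 34 members and -0.01 over all genes. Under variable ventilation 8 passed (4 higher, 4 lower; 23.5%), against 26.7% of all genes (12.9% higher, 13.9% lower). The last count was the least stable of these. It was 2 without acute_noisy library 047 or 050, 3, 4 and 5 without healthy_noisy library 061, 029 and 078, and 13 without acute_noisy library 053.

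**Figure D1:**
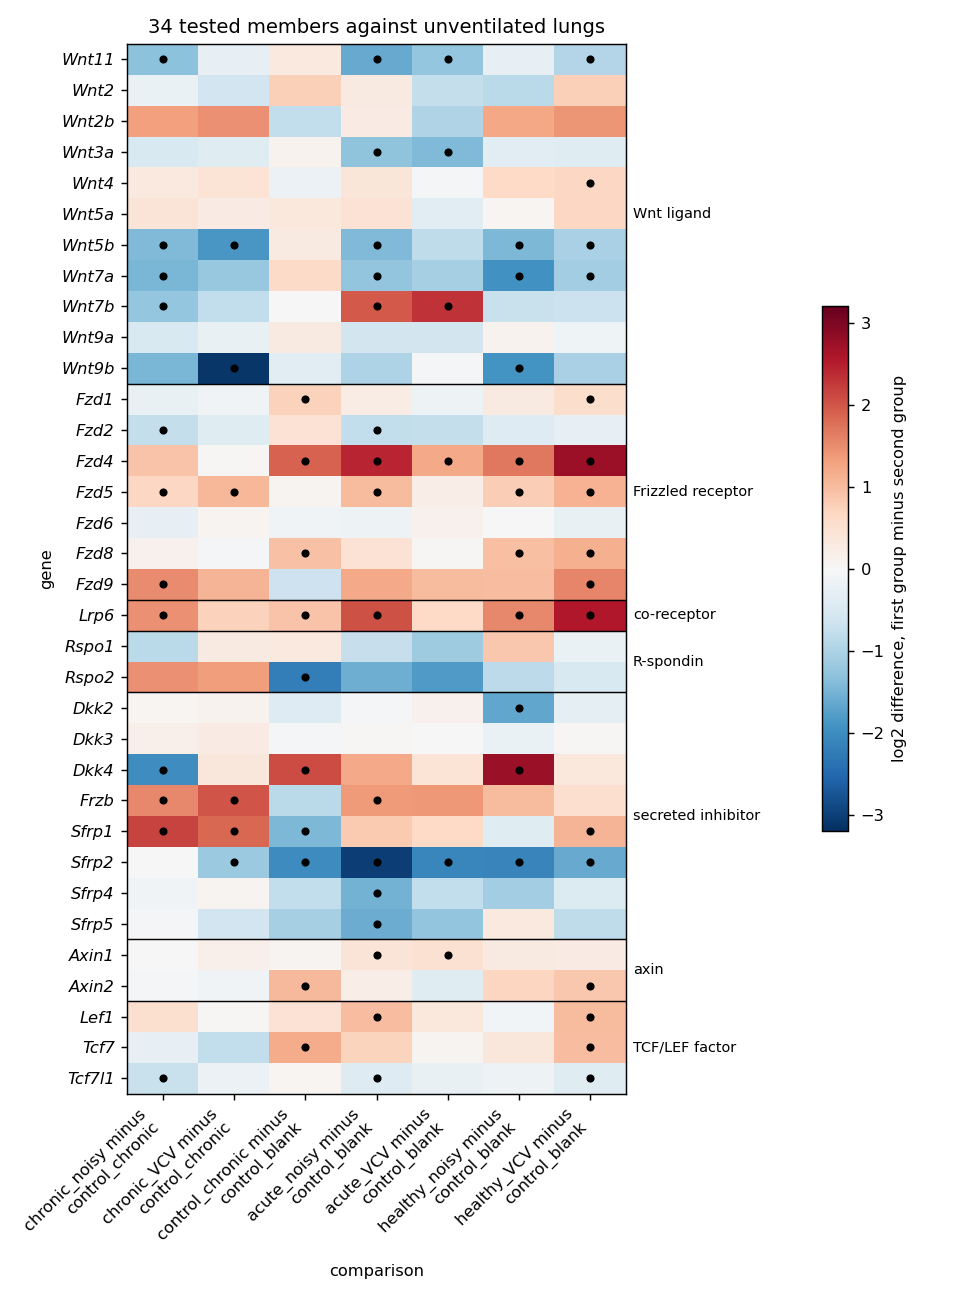
Log2 differences of the 34 tested members (rows, grouped by role) in the comparisons with an unventilated group (columns), with dots where the adjusted p was under 0.05. Sfrp2 is lower in all 5 comparisons with control_blank, and Wnt7b is higher in both acute injury groups against control_blank.

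**Figure D2:**
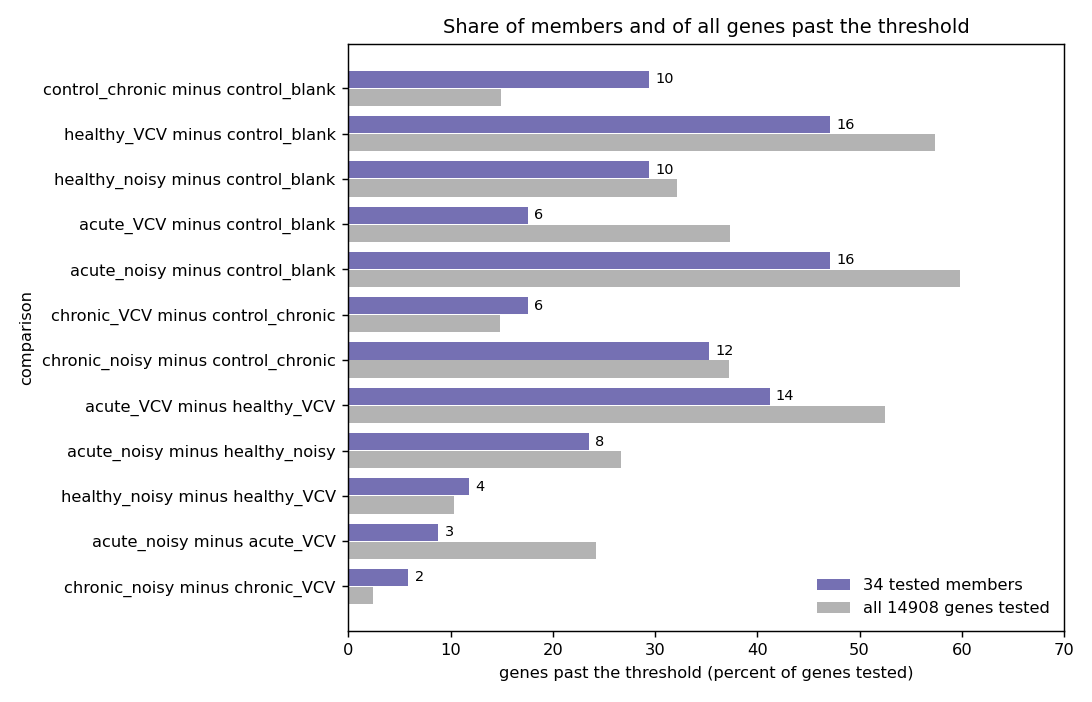
Percent of members (34 tested) and percent of all 14908 genes past the threshold in each comparison, as horizontal bars; the number beside a bar counts the members. The share of members exceeds that of all genes by the widest margin in control_chronic against control_blank, with 29.4% and 14.9%.

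Wnt7b was the ligand that stood out with acute injury. In mice it is made by lung epithelium and signals to the mesenchyme during development. Its values were 104, 132, 141 and 84.3 in acute_noisy lungs and 135, 122 and 188 in acute_VCV lungs. The other libraries were 11.8, 14.5 and 28.6 in healthy_noisy, 25.7, 17.9, 19.3 and 9.48 in healthy_VCV, and 31.6, 20.5 and 35.1 in control_blank lungs. All 7 acutely injured lungs lay above all 10 of these, with no overlap.

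Against control_blank, Wnt7b rose by 1.96 ± 0.45 in acute_noisy lungs (SE; 3.88-fold, limma adjusted p = 0.00069) and by 2.32 ± 0.48 in acute_VCV lungs (5.0-fold, limma adjusted p = 0.00059). The comparison of acute_VCV with control_blank lies wholly within series 12. Against ventilated uninjured lungs of the same mode it rose by 2.66 ± 0.45 under variable ventilation (limma adjusted p = 0.00054) and by 3.02 ± 0.45 under constant ventilation (limma adjusted p = 7.2e-06). These 4 calls held when any 1 library was left out. Within series 15 alone the difference under variable ventilation was 2.39, which did not pass (limma adjusted p = 0.37, 2 libraries against 3), and it was 2.28 and passed with series as a covariate (limma adjusted p = 0.0085). Ventilation without injury gave no call against control_blank, at -0.70 ± 0.48 in healthy_noisy and -0.70 ± 0.45 in healthy_VCV lungs (limma adjusted p = 0.26 and 0.18). Nor did the 2 modes differ by the test within acute injury (-0.36 ± 0.45, limma adjusted p = 0.58).

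The chronic groups held no such increase. Wnt7b values were 7.22, 13.5 and 14.3 in chronic_noisy lungs, 13.8, 23.3 and 12.2 in chronic_VCV lungs and 9.53, 37.7, 35.7, 21.9 and 57.8 in control_chronic lungs. It fell by 1.24 ± 0.42 in chronic_noisy against control_chronic lungs (limma adjusted p = 0.025), with overlapping groups. That call was lost without chronic_noisy library 075 (-0.96) and without library control_chronic_114 (-1.14), control_chronic_115 (-1.16) or control_chronic_117 (-0.98).

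Wnt3a, a canonical ligand, went the other way in acute injury. Its values were 746, 299, 209 and 731 in acute_noisy lungs and 647, 303 and 313 in acute_VCV lungs, against 1024, 1237 and 925 in control_blank lungs. All 7 acute values lay below the 3 controls. It fell by 1.29 ± 0.31 in acute_noisy lungs (limma adjusted p = 0.0012) and by 1.42 ± 0.33 in acute_VCV lungs (limma adjusted p = 0.0019), and both calls held when any 1 library was left out. The 2 acute_noisy libraries of series 14 gave 299 and 209 and those of series 15 gave 746 and 731. Across the 2 groups that hold both series, Wnt3a was 1.01 ± 0.23 higher in series 15 than in series 14 (limma adjusted p = 0.044), the only member past the threshold of 34, with 1.15% of all genes past it (0.604% higher, 0.543% lower). Against healthy_noisy lungs, at 871, 808 and 833, Wnt3a fell in acute_noisy lungs by 0.96 ± 0.31 (limma adjusted p = 0.027), but by 0.45 with series as a covariate and by 0.18 within series 15, neither of which passed. The call without such adjustment was lost without acute_noisy library 047 or 050 or any 1 of the 3 healthy_noisy libraries. Against healthy_VCV lungs, at 806, 751, 728 and 927, it fell in acute_VCV lungs by 1.02 ± 0.31 (limma adjusted p = 0.0086), a call lost without acute_VCV library 045 (-0.83) or 049 (-0.85).

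Wnt5b and Wnt11, ligands best known for signals without beta-catenin, were lower after ventilation in most settings. Wnt5b had values of 222, 241 and 186 in chronic_noisy lungs and 251.04, 93.3 and 169.7 in chronic_VCV lungs, against 556, 468, 545, 658 and 697 in control_chronic lungs. No ventilated value reached the lowest unventilated one. It fell by 1.43 ± 0.36 in chronic_noisy (limma adjusted p = 0.0048) and by 1.86 ± 0.36 in chronic_VCV lungs (limma adjusted p = 0.0019), and both calls held when any 1 library was left out.

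In the groups without chronic injury Wnt5b had values of 131, 335, 109 and 204 in acute_noisy, 452, 186 and 231 in acute_VCV, 304, 204 and 84.9 in healthy_noisy and 235, 215, 202 and 276 in healthy_VCV lungs, against 524, 496 and 401 in control_blank lungs. Of these, 1 acute_VCV value reached into the control range. Wnt5b fell against control_blank by 1.41 ± 0.38 in acute_noisy (limma adjusted p = 0.0031), by 1.43 ± 0.41 in healthy_noisy (limma adjusted p = 0.011) and by 1.03 ± 0.38 in healthy_VCV lungs (limma adjusted p = 0.025), and did not pass in acute_VCV lungs. The healthy_noisy call was lost without healthy_noisy library 078 (-0.92). The healthy_VCV call was lost without control_blank library 016 (-0.95) or 021 (-0.99), or without healthy_VCV library 060 (-0.96).

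Wnt11 had values of 54.2, 79 and 55.7 in chronic_noisy lungs, against 127, 171, 166, 131 and 187 in control_chronic lungs. It fell by 1.304 ± 0.35 between them (limma adjusted p = 0.0068) with no overlap, whereas the chronic_VCV lungs at 133, 102 and 153 did not pass. Chronic_noisy lungs are of series 14, chronic_VCV lungs of series 15 and control_chronic lungs of series 18, so ventilation and series cannot be told apart. Across the groups that hold both series, Wnt11 was 1.01 ± 0.31 higher in series 15 than in series 14 (limma adjusted p = 0.08). Within acute_noisy lungs, series 14 gave 17.4 and 27.0 and series 15 gave 55.9 and 96.6. Wnt11 was also measured in the groups without chronic injury. Its values were 55.9, 17.4, 27.0 and 96.6 in acute_noisy and 80.6, 49.1 and 36.0 in acute_VCV lungs, against 96.4, 143 and 142 in control_blank lungs. Only 1 acute value, 96.6 in an acute_noisy lung, reached the control range. Wnt11 fell in both groups, by 1.62 ± 0.37 (limma adjusted p = 0.00073) and by 1.24 ± 0.40 (limma adjusted p = 0.016). The acute_VCV call was lost without acute_VCV library 049 (-0.98) or control_blank library 021 (-1.15). In healthy_VCV lungs Wnt11 was 63.8, 57.3, 71.0 and 67.1, all below control_blank, and fell by 0.94 ± 0.37 (limma adjusted p = 0.033), a call lost without control_blank library 021 or 074 or healthy_VCV library 025 or 057. In healthy_noisy lungs Wnt11 was 86.8 to 120.2, overlapped control_blank and did not pass. Healthy_noisy and chronic_VCV lungs, the ventilated groups in which Wnt11 did not pass, are all of series 15. Apart from acute_VCV against control_blank, group and series cannot be told apart in these Wnt11 differences.

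Wnt7a, an epithelial ligand, had values of 40.5, 32.6 and 50.1 in healthy_noisy lungs, against 98.1, 199 and 201 in control_blank lungs. It fell by 1.94 ± 0.51 (limma adjusted p = 0.0065) with no overlap. Against control_chronic lungs, at 261, 218, 257, 165 and 351, Wnt7a was 50.6, 127 and 101 in chronic_noisy lungs and fell by 1.48 ± 0.46 (limma adjusted p = 0.015), also with no overlap. That call was lost without chronic_noisy library 075 (-1.09). Smaller falls passed in acute_noisy (-1.26 ± 0.48) and healthy_VCV lungs (-1.12 ± 0.48) against control_blank, with overlapping groups. The acute_noisy call was lost without control_blank library 021 or 074 or acute_noisy library 050 or 053, and the healthy_VCV call without control_blank library 021 or 074 or healthy_VCV library 057 (-0.65). Markers of airway epithelium moved with Wnt7a in these 4 comparisons: both club cell markers and both ciliated cell markers were lower in each, with medians of -1.60 and -1.59 in healthy_noisy, -2.28 and -1.94 in healthy_VCV and -2.93 and -3.03 in acute_noisy against control_blank lungs, and of -1.66 and -1.53 in chronic_noisy against control_chronic lungs. They were also lower in acute_VCV and chronic_VCV lungs, where Wnt7a did not pass, and their part was not tested.

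Wnt9b was 0, 4.06 and 4.44 in chronic_VCV lungs, against 54.0, 15.9, 29.3, 21.9 and 18.2 in control_chronic lungs. It fell by 3.12 ± 0.61 (limma adjusted p = 0.0019), a call that held when any 1 library was left out. Chronic_noisy lungs, at 5.42 to 11.67, also lay wholly below control_chronic, without a call. In healthy_noisy lungs, at 6.03 to 13.07, Wnt9b fell against control_blank lungs, at 29.18 to 34.35 (-1.905, limma adjusted p = 0.037). That call was lost in 5 of 6 leave-one-out fits. The gene is read thinly, with at most 83 reads in a library, so the size of the fold depends on the 1 added to each value. Wnt4, Wnt2, Wnt2b and Wnt5a, ligands of the lung mesenchyme and endothelium among other tissues, fell together with constant ventilation after acute injury as against constant ventilation alone. Wnt2b was 12.8, 24.9 and 10.5 in acute_VCV lungs, against 92.8, 77.0, 113.03 and 53.7 in healthy_VCV lungs, and fell by 2.36 ± 0.69 (limma adjusted p = 0.0064). Wnt4 fell by 0.72 ± 0.23 (limma adjusted p = 0.012), Wnt2 by 1.53 ± 0.55 (limma adjusted p = 0.022) and Wnt5a by 1.02 ± 0.36 (limma adjusted p = 0.02), each with no overlap between the groups. The Wnt2 call was lost without acute_VCV library 040 (-1.34) or 045 (-1.46) or healthy_VCV library 025 (-1.26), and the Wnt5a call without acute_VCV library 049 (-0.99) or healthy_VCV library 025 (-0.82). Fibroblast markers moved with these ligands, with 4 of 7 lower and none higher in that comparison and summed values of 59826 to 70127 in acute_VCV and 111897 to 157068 in healthy_VCV lungs, and their part was not tested. Acute_VCV lungs are of series 12 and healthy_VCV lungs of series 14 and 15, so injury and series cannot be told apart in these falls. Wnt4, Wnt2, Wnt2b and Wnt5a did not pass in acute_VCV against control_blank lungs, which are all of series 12. Wnt9a passed in no comparison between groups.

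**Figure D3:**
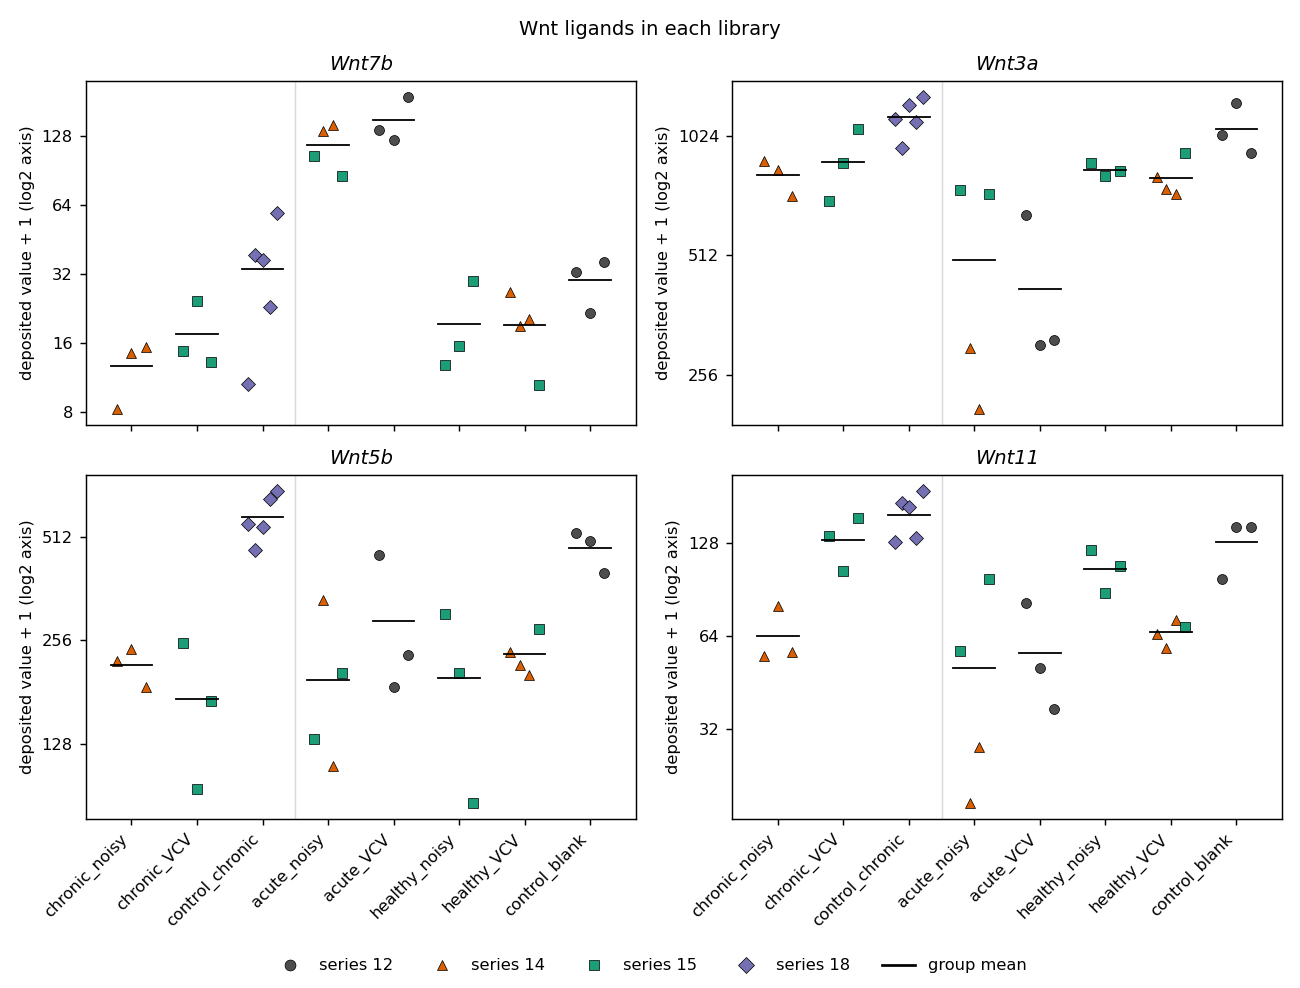
Value + 1 on a log2 axis for Wnt ligands in each library, by group, with the group mean as a line and the number series as colour and marker. Wnt7b in the 7 acutely injured lungs, at 84.3 to 188, lies above all uninjured ventilated and control_blank lungs.

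Against control_blank, 5 of the 7 tested Frizzled receptors rose in healthy_VCV, 3 in healthy_noisy, 3 in control_chronic and 1 in acute_VCV lungs, with 0 lower in each, while 2 rose and 1 fell in acute_noisy lungs. Fzd4, the receptor of endothelium that also binds Norrin, had values of 465, 906, 744 and 276 in acute_noisy, 139, 240.4 and 361 in acute_VCV, 371, 177 and 493 in healthy_noisy and 586, 675, 689.5 and 718 in healthy_VCV lungs, against 40.5, 98.5 and 239.7 in control_blank lungs. The healthy_VCV and acute_noisy groups lay wholly above the controls, and the other 2 overlapped them. Fzd4 rose by 2.74 ± 0.43 in healthy_VCV (limma adjusted p = 1.9e-05) and by 2.45 ± 0.43 in acute_noisy lungs (limma adjusted p = 6e-05), and both calls held when any 1 library was left out. Both groups are of series 14 and 15 and control_blank lungs of series 12, so group and series cannot be told apart. Series 15 minus series 14 within these groups was -0.62 ± 0.42 for Fzd4 and did not pass (limma adjusted p = 0.37). It also passed in healthy_noisy (1.68 ± 0.46) and acute_VCV lungs (1.21 ± 0.46), but fell to 1.05 and 0.58 and no longer passed without control_blank library 016. The healthy_noisy call was lost without healthy_noisy library 078 (1.37) as well, and the acute_VCV call without control_blank library 021 (1.21) or acute_VCV library 045 (1.18) or 049 (0.88). Endothelial markers moved with Fzd4 in part. Of 3 tested, 2 were higher and 1 lower in healthy_VCV lungs (median 0.91), 1 higher and 1 lower in acute_noisy lungs (0.20), and 1 higher in acute_VCV lungs (0.02). In healthy_noisy lungs 0 passed by limma or by edgeR and 1 was at an unadjusted p under 0.05 (0.54). Their part was not tested.

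Lrp6 is the co-receptor that Dkk proteins block. Its values were 1835, 2865, 3069 and 1538 in acute_noisy, 550.1, 936 and 1214 in acute_VCV, 1487, 1254 and 2201 in healthy_noisy and 3204, 3434, 3488 and 2799 in healthy_VCV lungs, against 337, 474 and 1022 in control_blank lungs. Only acute_VCV lungs overlapped the controls. Lrp6 rose by 2.56 ± 0.32 in healthy_VCV (5.88-fold, limma adjusted p = 2e-06), by 2.03 ± 0.32 in acute_noisy (limma adjusted p = 1.9e-05) and by 1.55 ± 0.34 in healthy_noisy lungs (limma adjusted p = 0.002). These 3 calls held when any 1 library was left out. In chronic_noisy lungs Lrp6 was 2572, 2655 and 3408, against 1229.7, 1025, 969, 772 and 1255 in control_chronic lungs, a rise of 1.46 ± 0.31 (limma adjusted p = 0.0012) that also held. The chronic_VCV lungs, at 1222, 2514 and 1656, overlapped the controls and did not pass. The groups in which Lrp6 rose are of series 14 or 15 and their controls of series 12 or 18. Group and series thus cannot be told apart in these rises. Within acute_noisy lungs, series 14 gave 2865 and 3069 and series 15 gave 1835 and 1538. Across the groups that hold both, series 15 minus series 14 was -0.58 ± 0.30 for Lrp6 and did not pass (limma adjusted p = 0.24).

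Fzd5 and Fzd8, receptors for canonical ligands, followed in part. Fzd5 was 279, 256, 238 and 249.6 in healthy_VCV lungs, against 100.5, 108 and 148 in control_blank lungs, and rose by 1.12 ± 0.24 (limma adjusted p = 0.00045). It was 208, 256 and 334 in chronic_VCV lungs, against 124, 97.2, 126, 94.2 and 203 in control_chronic lungs, and rose by 1.07 ± 0.23 (limma adjusted p = 0.0039). Fzd8 was 813, 831, 749 and 1083 in healthy_VCV and 930.3, 649 and 742 in healthy_noisy lungs, against 318, 440.3 and 425 in control_blank lungs. It rose by 1.14 ± 0.22 (limma adjusted p = 0.00013) and by 0.97 ± 0.23 (limma adjusted p = 0.0035). None of these 4 pairs of groups overlapped, and the calls held when any 1 library was left out. Fzd5 also rose in acute_noisy against control_blank lungs, by 1.02 (limma adjusted p = 0.00098), a call that held in the same way. Its rise in healthy_noisy against control_blank lungs, by 0.78 (limma adjusted p = 0.025), was lost in 4 of 6 leave-one-out fits.

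In unventilated chronically injured lungs Fzd4 was 372, 400.5, 306, 348 and 427, all above the control_blank values given above, and rose by 1.89 ± 0.41 (limma adjusted p = 0.0076). Fzd8, at 556, 684, 897, 750.3 and 938, also lay wholly above control_blank and rose by 0.94 ± 0.21 (limma adjusted p = 0.0076). Fzd1 was 1471, 1655, 1615, 1586 and 1967.3 in control_chronic lungs, against 633, 1409 and 1066 in control_blank lungs, and rose by 0.75 ± 0.22 (limma adjusted p = 0.025) with no overlap. Lrp6 rose by 0.92 ± 0.31 with overlapping groups (limma adjusted p = 0.046). All 4 calls were lost without control_blank library 016, at 1.255, 0.80, 0.43 and 0.57. The Fzd1 call was also lost without library control_chronic_117 (0.68), and that of Lrp6 without control_blank library 021 or library control_chronic_113, control_chronic_114, control_chronic_115 or control_chronic_117. Endothelial markers moved with these genes, with 2 of 3 higher, a median of 0.83 and sums of 20915 to 26620 in control_chronic and 11934 to 20193 in control_blank lungs, and their part was not tested. With ventilation after chronic injury, Fzd5 rose in chronic_noisy lungs by 0.67 ± 0.23 (limma adjusted p = 0.027), a call lost without chronic_noisy library 079 or 084 or library control_chronic_114 or control_chronic_116.

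With acute injury under constant ventilation these receptors were lower than under constant ventilation alone. Lrp6 fell by 1.91 ± 0.32 in acute_VCV against healthy_VCV lungs (limma adjusted p = 3.5e-05), Fzd4 by 1.53 ± 0.43 (limma adjusted p = 0.0049), Fzd8 by 1.10 ± 0.22 (limma adjusted p = 0.0002), Fzd5 by 0.91 ± 0.24 (limma adjusted p = 0.003) and Fzd1 by 0.72 ± 0.22 (limma adjusted p = 0.0092). All 5 pairs of groups were without overlap and held when any 1 library was left out. In that comparison 1 of 7 Frizzled receptors rose and 4 fell, where 26.1% of all genes rose and 26.4% fell. The receptor that rose was Fzd6 (0.37 ± 0.14, limma adjusted p = 0.031). Its call was lost without acute_VCV library 040 or 045 or healthy_VCV library 025, 060 or 062. Acute_VCV lungs are all of series 12 and healthy_VCV lungs of series 14 and 15, so injury and series cannot be told apart here. Fzd2 fell in acute_noisy against control_blank lungs (-0.80 ± 0.30) and in chronic_noisy against control_chronic lungs (-0.77 ± 0.29). The first call of Fzd2 was lost without control_blank library 021 or 074 or acute_noisy library 047 or 050, and the second without any 1 of the 3 chronic_noisy libraries or library control_chronic_113, control_chronic_114 or control_chronic_117. Fzd9, with at most 36 reads in a library, passed in healthy_VCV against control_blank (1.56 ± 0.60) and in chronic_noisy against control_chronic lungs (1.502 ± 0.574). The first call of Fzd9 was lost without control_blank library 021 or 074 or healthy_VCV library 057, 060 or 062, and the second without chronic_noisy library 075 or 084 or library control_chronic_115 or control_chronic_117. Frizzled genes share stretches of sequence, and how reads matching several genes were counted is not given in the sources used here.

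**Figure D4:**
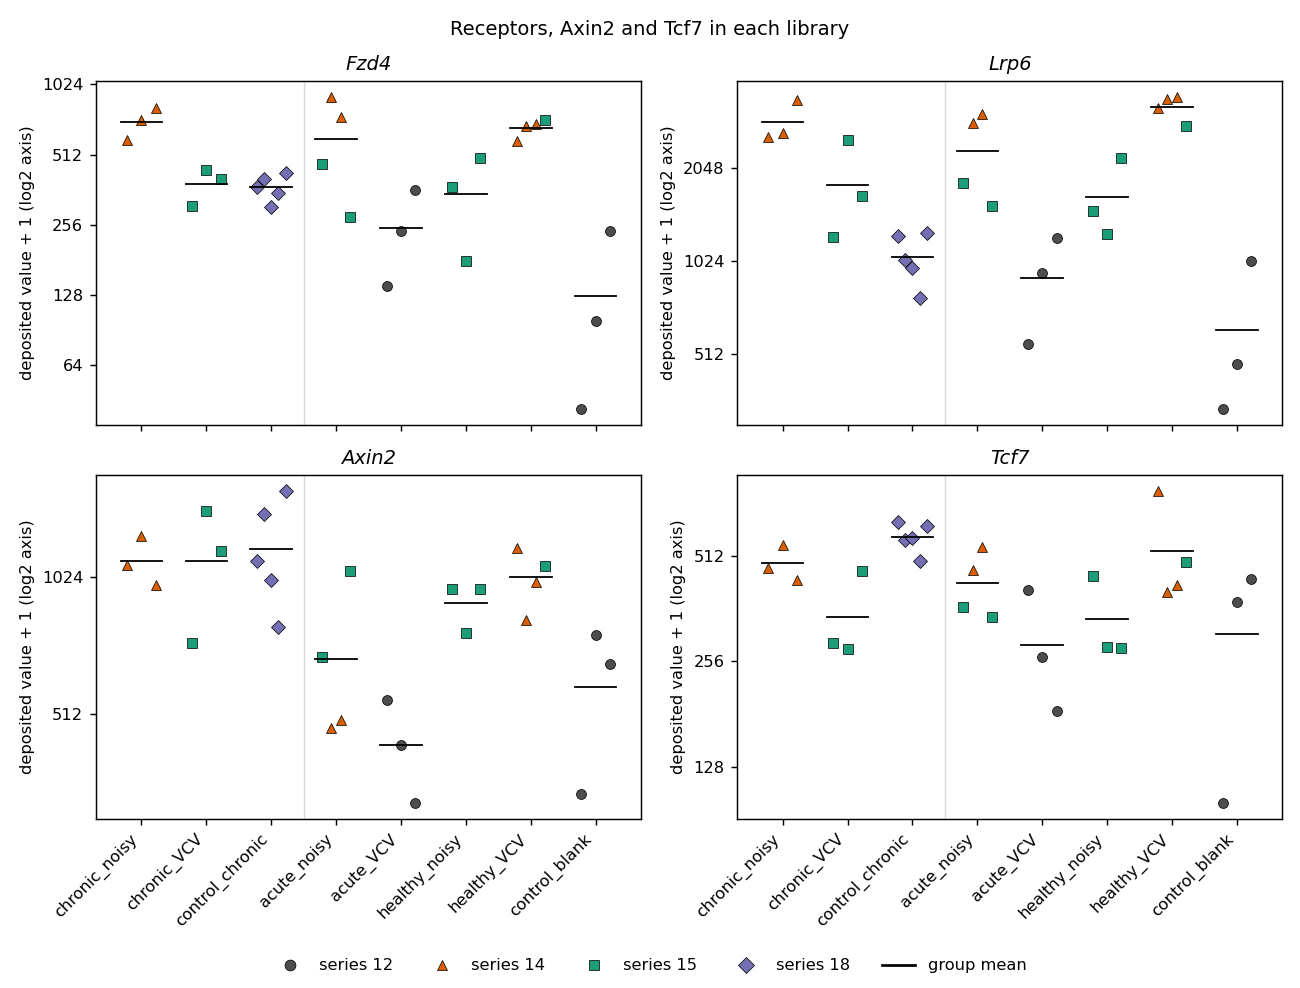
Value + 1 on a log2 axis for Fzd4, Lrp6, Axin2 and Tcf7 in each library, by group, with the group mean as a line and the number series as colour and marker. Lrp6 lies at 2799 to 3488 in healthy_VCV lungs and at 337 to 1022 in control_blank lungs.

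Of the R-spondins, Rspo1 had values of 420.4, 161, 66.6 and 126 in acute_noisy lungs, against 569.6, 463 and 404 in healthy_noisy lungs, and fell by 1.61 ± 0.54 (limma adjusted p = 0.03), with 1 acute value inside the other range. The call was lost without acute_noisy library 047 or 050 or healthy_noisy library 029 or 061. Rspo2, which supports lung and limb outgrowth, had values of 6.35, 3.97, 5.09, 0 and 10.7 in control_chronic lungs, against 18.6, 18.8 and 28 in control_blank lungs, and fell by 2.22 ± 0.65 (limma adjusted p = 0.028). No control_chronic value reached the control_blank range, yet the call was lost without any 1 of the 3 control_blank libraries or without library control_chronic_116 (-1.65).

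Among the inhibitors, Sfrp2, a secreted protein that binds Wnt ligands and is made by fibroblasts, fell in each of the 5 groups compared with control_blank lungs. Its values were 94.7, 124, 119.8 and 143 in acute_noisy, 333, 239.8 and 148 in acute_VCV, 311, 168 and 209.7 in healthy_noisy, 461, 399, 298 and 186 in healthy_VCV and 191, 274, 192, 259 and 297 in control_chronic lungs, against 1404, 716 and 896 in control_blank lungs. The lowest control_blank library lay above all 19 libraries of these 5 groups. Sfrp2 fell by 3.01 ± 0.36 in acute_noisy (limma adjusted p = 1.1e-06), by 2.08 ± 0.39 in acute_VCV (limma adjusted p = 0.00026), by 2.12 ± 0.39 in healthy_noisy (limma adjusted p = 0.00048), by 1.60 ± 0.36 in healthy_VCV (limma adjusted p = 0.00074) and by 2.01 ± 0.35 in control_chronic lungs (limma adjusted p = 0.0026). It was the only member whose call held in every leave-one-out fit of all 5 comparisons. They share the same 3 control_blank libraries and so are not separate pieces of evidence. Smooth muscle markers moved with Sfrp2 in part, with both markers lower and summed values of 6208 to 8913 in control_chronic and 16865 to 26483 in control_blank lungs. Fibroblast markers summed to 38087 to 80915 in control_chronic and 54513 to 81891 in control_blank lungs, with 2 of 7 lower. In the other 4 comparisons smooth muscle markers were both lower in healthy_VCV, healthy_noisy and acute_noisy lungs, and 0 of 2 passed in acute_VCV lungs by limma, by edgeR or at an unadjusted p under 0.05. Fibroblast markers went the other way there, with 3 of 7 higher in healthy_VCV (median 0.88), 2 in acute_noisy (0.55), 1 in healthy_noisy (0.01) and 1 in acute_VCV lungs (0.07), and 0 lower. Markers of the cardiac muscle of pulmonary vein walls were lower in all 5 comparisons, in 1 to 4 of 4 cases, and so were club cell markers, in 1 or 2 of 2 cases. The part of any of these in the fall of Sfrp2 was not tested.

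In chronically injured lungs the 2 modes of ventilation gave different results for Sfrp2 against control_chronic, without a call between the modes themselves. Its values were 155, 346 and 261 in chronic_noisy and 129, 53.8 and 161 in chronic_VCV lungs. The difference from control_chronic lungs was 0.02 ± 0.35 in chronic_noisy lungs (limma adjusted p = 0.98). In chronic_VCV lungs Sfrp2 fell by 1.19 ± 0.35 (limma adjusted p = 0.024), a call lost without chronic_VCV library 069 (-0.73).

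Sfrp1 and Frzb, ligand-binding proteins of the same family as Sfrp2, rose in ventilated chronically injured lungs. Sfrp1 had values of 79.5, 88.9 and 142 in chronic_noisy and 29.1, 241 and 69.9 in chronic_VCV lungs, against 15.9, 17.8, 21.6, 23.6 and 31.1 in control_chronic lungs. Only 1 chronic_VCV value reached into the control range. Sfrp1 rose by 2.17 ± 0.42 in chronic_noisy lungs (4.51-fold, limma adjusted p = 0.00066), a call that held when any 1 library was left out. In chronic_VCV lungs it rose by 1.84 ± 0.42 (limma adjusted p = 0.0055), but by 1.04 and no longer past the threshold without chronic_VCV library 069.

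Frzb had values of 148, 196 and 250.5 in chronic_noisy and 97.97, 877 and 225 in chronic_VCV lungs, against 31.8, 35.7, 113.3, 133 and 73.9 in control_chronic lungs. It rose by 1.53 ± 0.56 in chronic_noisy lungs (limma adjusted p = 0.034) with no overlap, and by 2.004 ± 0.558 in chronic_VCV lungs (limma adjusted p = 0.018). Library 069 again gave the highest value of its group, and without it the chronic_VCV difference of Frzb was 1.15 and did not pass. Without ventilation, Sfrp1 in control_chronic lungs lay wholly under the 64.0, 54.2 and 63.1 of control_blank lungs, a fall of 1.45 ± 0.42 (limma adjusted p = 0.026) that was lost without control_blank library 016 or 021 or library control_chronic_113. The call of Frzb in chronic_noisy lungs was lost without chronic_noisy library 079 (1.52) or 084 (1.35) or library control_chronic_113 (1.27) or control_chronic_114 (1.31). Fibroblast markers moved with both genes: 6 of 7 were higher in chronic_noisy against control_chronic lungs, with summed values of 66602 to 146328 in chronic_noisy, 68168 to 204787 in chronic_VCV and 38087 to 80915 in control_chronic lungs, and their part was not tested.

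Dkk4, a Dickkopf inhibitor that is itself a Wnt target, differed between the modes of ventilation in opposite directions in uninjured and in chronically injured rats. Its values were 154, 104 and 101 in healthy_noisy lungs, against 11.6, 33.8, 16.6 and 30.0 in healthy_VCV lungs, a rise of 2.42 ± 0.58 (limma adjusted p = 0.028) with no overlap. They were 8.13, 29.6 and 22.3 in chronic_noisy lungs, against 101, 106 and 79.9 in chronic_VCV lungs, a fall of 2.36 ± 0.62 (limma adjusted p = 0.045), again with no overlap. The high group in each pair is of series 15 and the low group is wholly or mostly of series 14. Within acute_noisy lungs the 2 libraries of series 14 gave 10.8 and 23.6 and those of series 15 gave 94.7 and 96.6. Across the groups holding both, Dkk4 was 1.71 ± 0.47 higher in series 15 (limma adjusted p = 0.061), and with series as a covariate the 2 mode differences were 1.14 and -0.65 and did not pass. In control_chronic lungs, all of series 18, it was 121, 85.2, 61.1, 55.5 and 61, against 24.3, 22.1 and 7.99 in control_blank lungs of series 12, a rise of 2.10 ± 0.56 (limma adjusted p = 0.018) that was lost without control_blank library 016 (2.37) or 074 (1.62). Neither mode call of Dkk4 held in every leave-one-out fit. Its rise in healthy_noisy lungs, of series 15, against the same control_blank lungs did hold when any 1 library was left out, at 2.77 ± 0.63 (limma adjusted p = 0.0023), and ventilation and series cannot be told apart in it.

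Of the other inhibitors, Dkk2 had values of 48.3, 31.4 and 7.16 in healthy_noisy lungs, against 88.3, 66.9 and 67.9 in control_blank lungs, and fell by 1.67 ± 0.49 (limma adjusted p = 0.013). It did not pass without healthy_noisy library 078 (-0.90) or control_blank library 016 (-1.54). Sfrp4 and Sfrp5, with at most 46 and 110 reads in a library, fell in acute_noisy against control_blank lungs (-1.51 ± 0.55 and -1.58 ± 0.61). The Sfrp4 call was lost without control_blank library 016 or acute_noisy library 047, and the Sfrp5 call without control_blank library 016 or acute_noisy library 046, 047 or 050. Dkk3 passed in no comparison, its group means lying between 1191 and 1656.

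**Figure D5:**
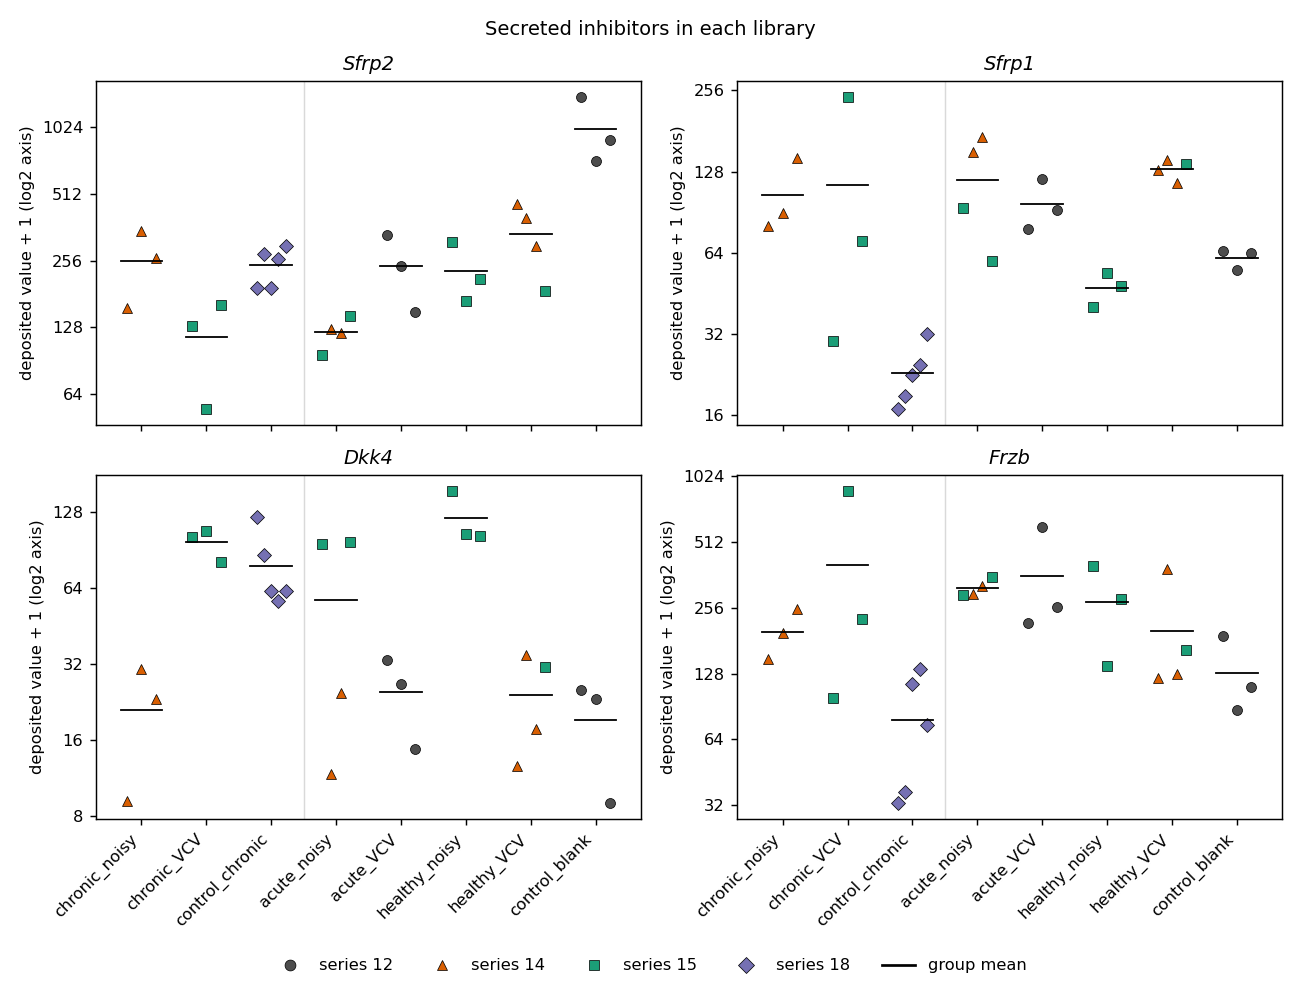
Value + 1 on a log2 axis for secreted inhibitors in each library, by group, with the group mean as a line and the number series as colour and marker. Sfrp2 lies at 716 to 1404 in control_blank lungs and at or under 461 in the 5 groups compared with them, and Dkk4 lies at 101 to 154 in healthy_noisy lungs.

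At the transcriptional end of the pathway, Axin2, whose promoter with 2 TCF/LEF cores is printed above, fell with acute injury under constant ventilation. Its values were 548, 436 and 326 in acute_VCV lungs, against 1180.3, 823, 994 and 1079 in healthy_VCV lungs. The groups did not overlap, and Axin2 fell by 1.24 ± 0.29 (limma adjusted p = 0.00098), a call that held when any 1 library was left out. Acute_VCV lungs are of series 12 and healthy_VCV lungs of series 14 and 15, so injury and series cannot be told apart in this fall. Against control_blank lungs, at 341, 761 and 657, neither acute group passed: the difference was 0.21 ± 0.29 in acute_noisy lungs, at 680.1, 475, 495 and 1054, and -0.38 ± 0.31 in acute_VCV lungs (limma adjusted p = 0.55 and 0.35). Axin2 was 1109, 1404, 1009, 792 and 1581 in control_chronic lungs, all above the control_blank range, and rose by 1.04 ± 0.28 (limma adjusted p = 0.018). It rose by 0.86 ± 0.29 in healthy_VCV lungs (limma adjusted p = 0.014). Without control_blank library 016 these 2 differences were 0.70 and 0.52 and neither passed. Axin1, the constitutive scaffold of the destruction complex, had values of 1438, 1721, 1632 and 1439 in acute_noisy and 1468, 1692 and 1797 in acute_VCV lungs, against 1168, 1162 and 1179 in control_blank lungs. All acute values lay above the controls, the rises being 0.41 ± 0.11 (limma adjusted p = 0.0037) and 0.49 ± 0.12 (limma adjusted p = 0.0028), and both held when any 1 library was left out. Uninjured ventilated lungs also lay wholly above the controls for Axin1, at 1272 to 1653 in healthy_noisy and 1316 to 1500 in healthy_VCV lungs, without a call. Axin1 passed in neither acute group against uninjured lungs of the same mode.

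Tcf7 and Lef1, factors that T cells also express, were likewise low in control_blank library 016. Tcf7 was 642, 567, 577, 495 and 623 in control_chronic lungs, against 99.7, 376 and 440.2 in control_blank lungs. It rose by 1.18 ± 0.34 (limma adjusted p = 0.027) with no overlap, but by 0.51 and not past the threshold without library 016, and the call was also lost without library control_chronic_117 (1.15). T cell markers gave no call there, with 0 of 7 past the threshold by limma or by edgeR and 1 at an unadjusted p under 0.05, a median of -0.29 and summed values of 1507.9 to 1706.5 in control_chronic and 1182, 2265 and 2128 in control_blank libraries 016, 021 and 074. Library 016, on which the Tcf7 call rested, was thus the lowest of the controls in T cell markers as well, and their part was not tested. Lef1 was 102, 146, 202 and 142 in acute_noisy and 237, 101, 147 and 126 in healthy_VCV lungs, against 38.9, 79.7 and 116.6 in control_blank lungs. It rose by 1.00 ± 0.31 (limma adjusted p = 0.0083) and 1.01 ± 0.31 (limma adjusted p = 0.0078) with overlapping groups, and by 0.57 and 0.58 without library 016, when neither passed. T cell markers were lower in 4 of 7 cases and higher in 0 in acute_noisy lungs (median -0.84), and lower in 2 and higher in 1 in healthy_VCV lungs (-0.71). Tcf7l1, mostly a repressor in the absence of beta-catenin, was 590.5, 565 and 530.5 in chronic_noisy lungs, against 979, 843, 897, 913 and 1016 in control_chronic lungs. It fell by 0.72 ± 0.13 (limma adjusted p = 0.00031) with no overlap and held when any 1 library was left out. Chronic_noisy lungs are of series 14 and control_chronic lungs of series 18, so ventilation and series cannot be told apart in that fall. Across the groups holding series 14 and 15, Tcf7l1 was 0.325 ± 0.114 higher in series 15, which did not pass (limma adjusted p = 0.11). Tcf7l1 also fell against control_blank in acute_noisy (-0.42, limma adjusted p = 0.0086) and healthy_VCV lungs (-0.38, limma adjusted p = 0.018). The acute_noisy call held when any 1 library was left out, and the healthy_VCV call was lost in 3 of 7 such fits. Group and series cannot be told apart in these falls either.

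The 2 modes of ventilation were compared within each kind of lung. In uninjured rats 4 members differed (1 higher, 3 lower; 11.8%), against 10.3% of all genes (4.31% higher, 6.01% lower). They were Dkk4, higher under variable ventilation, and Lrp6, Lef1 and Sfrp1, lower by 1.01 ± 0.32, 1.09 ± 0.31 and 1.47 ± 0.44 (limma adjusted p = 0.047, 0.037 and 0.042). In chronically injured rats 2 differed, Dkk4 and Tcf7l1 (0 higher, 2 lower; 5.88%), against 2.43% of all genes (0.563% higher, 1.86% lower). None of these 6 calls remained with series as a covariate, and none held in every leave-one-out fit. The uninjured count was 0 without healthy_VCV library 025, 057 or 060 or healthy_noisy library 029 or 061, and 1 without healthy_VCV library 062; where it was 0 by limma, 5 to 10 members were at an unadjusted p under 0.05. The chronic count was 0 by limma without any 1 of its 6 libraries, with 4 to 6 members at an unadjusted p under 0.05.

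In acutely injured rats 3 members were higher under variable than under constant ventilation and 0 lower (8.82%), against 24.2% of all genes (11.9% higher, 12.3% lower). Lrp6, at 1835, 2865, 3069 and 1538 in acute_noisy and 550.1, 936 and 1214 in acute_VCV lungs, rose by 1.38 ± 0.32 (limma adjusted p = 0.0057) with no overlap. Fzd5 rose by 0.81 ± 0.24 (limma adjusted p = 0.019) and Fzd4 by 1.24 ± 0.43 (limma adjusted p = 0.041). Without acute_VCV library 040 none of the 3 passed, at 1.06, 0.88 and 0.88, with 6 members at an unadjusted p under 0.05, and without acute_VCV library 045 or acute_noisy library 047 only Lrp6 did. The Fzd4 call was lost without acute_noisy library 050 as well. Acute_noisy libraries are of series 14 and 15 and acute_VCV libraries of series 12, so mode and series cannot be told apart.

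The mode difference itself was compared between injured and uninjured rats. Between acute injury and no injury, 8 members differed (7 higher, 1 lower; 23.5%), against 39% of all genes (19.6% higher, 19.4% lower), with a median of 0.37 over members and -0.08 over all genes. Wnt2 (2.68 ± 0.77, limma adjusted p = 0.0092), Lrp6 (2.39 ± 0.45, limma adjusted p = 0.00072), Fzd4 (2.29 ± 0.61), Lef1 (1.75 ± 0.44) and Fzd5 (1.15 ± 0.34) held when any 1 library was left out. Lrp6 was thus 1.38 higher under variable ventilation in acutely injured lungs and 1.01 lower in uninjured lungs. The Lrp6 call in uninjured lungs was lost in 6 of 7 leave-one-out fits. With series as a covariate that difference was -0.57 and did not pass (limma adjusted p = 0.56). Mode and series cannot be told apart in the acute pair, nor in this difference between acute injury and no injury. The count was 5 without acute_noisy library 047 or healthy_noisy library 061. Between chronic injury and no injury, 11 members differed (6 higher, 5 lower; 32.4%), against 29.7% of all genes (15.7% higher, 14% lower). The series lie oppositely in the chronic and the uninjured pair, and with series as a covariate the count was 0 by limma, with 2 members at an unadjusted p under 0.05. It was 7 without chronic_noisy library 079 and 5 without chronic_noisy library 084, healthy_noisy library 061 or chronic_VCV library 067.

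The effect of ventilation was also set between chronically injured and uninjured lungs. Under constant ventilation 4 members differed, all lower (0 higher, 4 lower; 11.8%), against 23.9% of all genes (9.92% higher, 14% lower). They were Fzd4 (-2.70 ± 0.60, limma adjusted p = 0.0062), Lrp6 (-1.82 ± 0.45, limma adjusted p = 0.0086), Fzd8 (-1.20 ± 0.30, limma adjusted p = 0.0097) and Tcf7 (-1.79 ± 0.50, limma adjusted p = 0.015), the Tcf7 call being lost without control_blank library 016 (-1.11) or chronic_VCV library 067 (-1.68). Fzd4, Lrp6 and Fzd8 thus rose with constant ventilation in uninjured lungs, and none of them passed in chronic_VCV against control_chronic lungs. Fzd5 rose with constant ventilation in both kinds of lung, by 1.12 and 1.07. Endothelial markers moved with Fzd4, Lrp6 and Fzd8 in that difference, with 2 of 3 lower and 1 higher (median -1.29). Their part was not tested. The unventilated lungs here are of series 12 and 18 and the ventilated ones of series 14 and 15. Group and series thus cannot be told apart in this difference. In chronically injured lungs Fzd4 was 308, 440.1 and 403 under constant ventilation, against 372, 400.5, 306, 348 and 427 unventilated. Under variable ventilation 3 members differed (2 higher, 1 lower; 8.82%), against 2.66% of all genes (0.966% higher, 1.69% lower): Sfrp1 (2.55 ± 0.63, limma adjusted p = 0.027), Sfrp2 (2.13 ± 0.52, limma adjusted p = 0.026) and Dkk4 (-4.76 ± 0.84, limma adjusted p = 0.0027). The count was 1, Dkk4, without control_blank library 074 or chronic_noisy library 084. The Sfrp1 call was also lost without healthy_noisy library 029 (2.44), and the Sfrp2 call without control_blank library 016, chronic_noisy library 079 or healthy_noisy library 061 or 078. Chronic_noisy lungs are of series 14, healthy_noisy lungs of series 15 and their controls of series 18 and 12. Across the groups holding series 14 and 15, Dkk4 was 1.71 ± 0.47 higher in series 15 (limma adjusted p = 0.061). Group and series cannot be told apart in its difference.

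Other genes of the pathway, in lists chosen with earlier results known, gave the surroundings. Of 22 tested genes of the beta-catenin core, 15 were higher and 3 lower in healthy_VCV against control_blank lungs, with a median of 0.45 (81.8%, against 57.4% of all genes, 29.3% higher and 28.1% lower). In acute_VCV against healthy_VCV lungs 5 were higher and 10 lower, with a median of -0.25 (68.2%, against 52.5% of all genes, 26.1% higher and 26.4% lower). Tnik, a kinase that acts with TCF factors, averaged 505.3 in healthy_VCV and 146 in control_blank lungs and rose by 1.94 ± 0.32 (limma adjusted p = 2.9e-05). Apc, a scaffold of the destruction complex, fell by 1.21 ± 0.22 in acute_VCV lungs, with a mean of 999.8, against 2249 in healthy_VCV lungs (limma adjusted p = 1e-04). Injury and series cannot be told apart in that comparison. Of 15 tested genes of secretion, co-receptors and receptor turnover, 6 were higher and 3 lower in healthy_VCV against control_blank lungs (60%), near the 57.4% of all genes. Of 8 planar polarity genes 4 were higher and 0 lower there (50%), a share below that of all genes.

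Of 9 tested feedback and target genes outside the family, 3 were higher and 2 lower in each acute group against control_blank lungs (55.6%), where 59.8% of all genes passed in acute_noisy and 37.3% in acute_VCV lungs. Fosl1, an AP-1 subunit that many signals other than Wnt also induce, averaged 758 in acute_noisy and 1397 in acute_VCV lungs, against 8.22 in control_blank lungs. Myc, likewise a target of many pathways, averaged 1944 and 2219 in those groups, against 422 in control_blank lungs, and rose by 2.16 ± 0.28 and 2.38 ± 0.30 (limma adjusted p = 2.6e-06 and 6.8e-06). Wisp2, a matricellular target gene, averaged 123 and 226 there, against 1190 in control_blank lungs, and fell by 3.47 ± 0.37 and 2.55 ± 0.39 (limma adjusted p = 2.9e-07 and 4e-05). Apcdd1, a membrane inhibitor of the pathway, averaged 322 and 204, against 49.5 in control_blank lungs, and rose by 2.61 ± 0.43 and 2.13 ± 0.46. Sostdc1, a secreted antagonist outside the family by name, averaged 8.92 in acute_noisy and 3.95 in acute_VCV lungs, against 89.7 in control_blank lungs, and fell by 3.90 ± 0.62 and 4.22 ± 0.66 (limma adjusted p = 1.9e-05 and 4.7e-05).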

How the data were processed

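Lung tissue of the right upper lobe was measured in 28 libraries of 8 groups. Per the labels, beads carrying poly-dT enriched mRNA and dUTP marking kept strand information; whether counting used the strand, or reads shared by genes, is not given in the sources used here. The submitters' processing notes name CASAVA 1.8.0, BWA, bedtools 2.11, DESeq 1.8.3 and build rn4, and the file header names Ensembl 67. The deposited table holds a signal per gene and library, read counts that the authors divided by a size factor. Each library's step gave back whole reads, within 0.1 read, for 100% of values, and 6024093 to 31923838 reads per library. Precision was taken from the spread between libraries. No 2 replicates were copies of each other (lowest chi-square per gene 15.3). All value columns were used, and 489 of 17002 genes have no name.

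Log2(value + 1) was fitted with limma 3.58.1 in R 4.3.3 (8 group means, trend and robust prior) for 14908 genes with a mean of at least 10 over the 28 libraries, two-sided, with Benjamini-Hochberg adjustment over all genes tested and a threshold of 0.05. The fit was tested on simulated data. Alternatives were a pseudocount of 10, no filter, quantile normalization, edgeR 4.0.16 quasi-likelihood on the recovered reads, fits of only the groups compared, number series as a covariate or series 15 alone, leaving out the 2 control_chronic libraries of lowest depth, and leaving out each library in turn. Values by library are given only for members the text turns on. These were drawn from members past the threshold whose groups do not overlap and whose higher mean is at least 50. Up to 4 in each direction in a comparison and 2 in a difference of differences were eligible, and ligands, receptors, inhibitors and factors chosen by role. Other members, Wnt2b, Wnt9b and Rspo2 among them, were added after their values were seen. Some calls are not described, such as Frzb in acute_noisy against control_blank lungs and Dkk2, Sfrp1 and Lef1 in acute_noisy against healthy_noisy lungs. Non-members are named from the pathway lists, up to 3 in each direction. The members and lists were chosen with earlier results of these data known. The labels number the samples of a group without saying outright that each is a separate rat, and p-values measure the spread between these samples. Promoters were matched by symbol.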

Additional observations from a re-analysis of the deposited data

Results flagged for a closer look

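Of 102 member and group combinations examined for a library far from the others of its group, 3 were found, where chance alone gives about 1 in 20. Frzb was 382.36 in healthy_VCV library 057, Rspo1 was 1234.78 in library control_chronic_117 and Sfrp5 was 18.34 in acute_noisy library 053, each above the rest of its group.

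A comparison that differed between kinds of lung by a test of the difference was found 26 times. The mode difference (variable minus constant ventilation) in acutely injured lungs minus that in uninjured lungs was 2.68 for Wnt2, 2.39 for Lrp6, 2.295 for Fzd4, 1.75 for Lef1, 1.68 for Sfrp1, 1.42 for Wnt5a, 1.15 for Fzd5 and -0.55 for Fzd6 on the log2 scale. The same difference between chronically injured and uninjured lungs was 2.51 for Wnt9b, 1.94 for Fzd4, 1.804 for Sfrp1, 1.74 for Lrp6, 1.725 for Sfrp2, 1.55 for Lef1, -0.595 for Fzd6, -0.73 for Tcf7l1, -1.70 for Wnt11, -2.23 for Rspo1 and -4.78 for Dkk4, and none of these 11 passed with number series as a covariate. The effect of constant ventilation in chronically injured lungs minus that in uninjured lungs was -2.70 for Fzd4, -1.82 for Lrp6, -1.79 for Tcf7 and -1.20 for Fzd8. The effect of variable ventilation, compared in the same way, was 2.55 for Sfrp1, 2.13 for Sfrp2 and -4.76 for Dkk4. Group and series cannot be told apart in the differences by constant or by variable ventilation. The same holds for the mode difference between acutely injured and uninjured lungs.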

How the results depend on the processing

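No paired analysis was possible because no 2 groups share a replicate number in the labels. With a pseudocount of 10 or quantile normalization, each comparison's count of members past the threshold stayed within 1.5 times that of the limma fit; quantile normalization moved the median of all genes to -0.128 in healthy_VCV against control_blank and to -0.146 in the acute against uninjured mode difference. The chronic mode comparison, with 2 members, had 1 without the filter on low values, and 0 by edgeR, in the fit of its own groups and with series as a covariate (5, 9 and 2 at an unadjusted p under 0.05). Fits of only the groups compared, which have fewer residual degrees of freedom, gave 5 in control_chronic against control_blank, 0 in acute_noisy against healthy_noisy (9 unadjusted), 7 in healthy_noisy against healthy_VCV and 0 in acute_noisy against acute_VCV (6 unadjusted). Series as a covariate gave 1 in acute_noisy against healthy_noisy, 0 in healthy_noisy against healthy_VCV (2 unadjusted) and 0 in the chronic against uninjured mode difference (2 unadjusted), where Wnt11 turned to 0.066. Series 15 alone, where healthy_VCV is 1 library assumed to vary like the other groups, gave 0 in acute_noisy against healthy_noisy (2 unadjusted) and 0 in healthy_noisy against healthy_VCV (3 unadjusted). Without the 2 shallowest control_chronic libraries there were 3 in control_chronic against control_blank, 7 in chronic_noisy against control_chronic and 1 in the variable-ventilation effect between chronic and no injury. The causes of these changes, other than fewer samples, were not tested. Leaving out each library gave 1 to 9 members for control_chronic, 9 to 14 for healthy_VCV, 6 to 10 for healthy_noisy, 4 to 10 for acute_VCV and 12 to 17 for acute_noisy against control_blank. It gave 3 to 8 for chronic_VCV and 7 to 11 for chronic_noisy against control_chronic, 10 to 15 for acute_VCV against healthy_VCV, 2 to 13 for acute_noisy against healthy_noisy, and 0 to 4, 0 to 4 and 0 for the mode comparisons in uninjured, acute and chronic lungs. The differences of differences gave 3 to 5 and 1 to 3 for constant and variable ventilation between chronic and no injury, and 5 to 11 each for mode between acute or chronic and no injury. Shares of all genes are not given beside these ranges, so whether the changes are particular to the members cannot be read from them. Over single members, 56 of 133 calls were kept in every leave-one-out fit. Axin2 in acute_noisy against control_blank, not past the threshold at 0.21, lay between -0.141 (without control_blank library 016) and 0.436 (without control_blank library 021). Depth limits Fzd9, Rspo2, Sfrp4, Sfrp5 and Wnt9b, tested at means under 20 over the 28 libraries.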
